A study of Homo sapiens and Mus musculus with 16 samples.

Results

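The genes of the TEAD and YAP pathway were followed across 4 lists of accessible chromatin regions. The 10 genes were TEAD1, TEAD2, TEAD3, TEAD4, YAP1, WWTR1, VGLL4, CCN1, CCN2 and AMOTL2, with their mouse orthologs of the same names. Every region that overlapped a gene body, or the 50 kb on either side of it, was taken as belonging to that locus. This gave 182 of 118107 regions in the control (Cas9) list, 154 of 97047 in the HNF4G-KO list, 139 of 68074 in the primary tumor list and 155 of 80843 in the mets list. All 10 genes had regions in each list.

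ATAC-seq, an assay whose transposase inserts adapters into DNA free of nucleosomes, was applied to 16 samples in 4 groups of 4. HPAF-II is an established human pancreatic adenocarcinoma line, profiled as control (Cas9) cells that had been given CRISPR-Cas9 and as cells in which CRISPR had disrupted HNF4G, a nuclear receptor gene (HNF4G-KO). The KPC lines were mouse cells, untreated, 1 line from a primary tumor and 1 from liver mets of a genetically engineered pancreatic cancer model. The study describes a pool of knockout clones as well as clones with heterozygous frameshift mutations, without saying which were used for ATAC-seq, and matched, isogenic KPC lines. Each group was represented by 1 list for its 4 replicates, so no value per replicate was held, the read depth is unknown, and no difference given here was checked between replicates. All intervals are Wilson 95% intervals and cover counting error only.

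The targeted gene HNF4G kept a region over its start site in both HPAF-II lists, at percentile 82.4 in control and 82.7 in HNF4G-KO, and an accessible start site does not show whether the gene was disrupted. The start sites of EPCAM, KRT8, KRT18, KRT19 and CDH1, which mark epithelial cells, were accessible in all 4 lists. Their highest percentiles ran from 54.2 to 94.5 in control and from 54.0 to 98.2 in HNF4G-KO, and lower in KPC, from 16.1 to 58.1 in the primary tumor and from 13.9 to 65.9 in mets. No list held a region at the start site of PTPRC, a leukocyte gene. PECAM1, an endothelial gene, had none in HPAF-II, and Pecam1 had 1 in the primary tumor (percentile 84.3) and 2 in mets (highest 70.4).

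TEAD proteins bind DNA but activate little on their own, and depend on the coactivators YAP1 and WWTR1 (also called TAZ). The Hippo kinase cascade phosphorylates both coactivators and keeps them out of the nucleus, and VGLL4 competes with them for the TEAD proteins. CCN1 and CCN2 encode secreted matrix-associated proteins and are widely used as readouts of YAP1 activity, whereas AMOTL2 is a target whose product binds YAP1 and restrains it. In pancreatic cancer this pathway is best known for its activity in the basal, or squamous, state.

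The sequence that TEAD proteins recognise was first read at the target genes. It was searched on both strands as the full ACATTCCA and as its inner core CATTCC, which every full match also contains and which reads GGAATG on the opposite strand. The CCN2 start site carried 3 cores in the stretch before it, in both species, and the part of that stretch inside the listed region is shown here from 5′ to 3′ on the strand of the gene, with the cores in capitals.
CCN2, hg38, chr6:131951373-131951617, minus strand: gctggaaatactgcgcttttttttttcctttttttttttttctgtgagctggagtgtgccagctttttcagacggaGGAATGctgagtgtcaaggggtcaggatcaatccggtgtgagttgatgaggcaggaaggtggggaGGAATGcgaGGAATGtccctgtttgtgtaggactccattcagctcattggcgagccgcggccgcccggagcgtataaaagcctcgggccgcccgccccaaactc
Ccn2, mm10, chr10:24595262-24595441, plus strand: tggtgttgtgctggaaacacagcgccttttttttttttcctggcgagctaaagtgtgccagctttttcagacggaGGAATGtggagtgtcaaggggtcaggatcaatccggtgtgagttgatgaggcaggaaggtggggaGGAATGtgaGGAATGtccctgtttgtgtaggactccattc

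The cores of CCN2 began at positions -169, -104 and -95 from the annotated start, and those of Ccn2 at -105, -40 and -31 from the earliest of its 3 annotated starts. Their spacing was the same in both species, 65 and then 9 bases. For all genes, the 250 bases before 1 annotated start per gene were searched. At least 1 core was present in 9.83% of 19701 human and 11.2% of 21851 mouse protein-coding genes. At least 3 were present in 10 human genes (0.0508%) and 17 mouse genes (0.0778%). The region over these cores was shared within both pairs, at percentile 61.7 in control and 65.4 in HNF4G-KO, and at 73.1 in the primary tumor and 79.2 in mets. The cores of CCN2 were therefore inside accessible chromatin in all 4 groups, near the same rank in each pair. In HPAF-II these ranks belong to regions of unequal width, 395 bp in control and 1082 bp in HNF4G-KO.

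Among the other start sites, CCN1 carried 1 core at -110 and its ortholog 1 at -107. Single cores also lay before TEAD1 (-13), TEAD4 (-13), YAP1 (-162) and AMOTL2 (-69). The mouse genes held 2 before Tead3 (-123 and -114) and Amotl2 (-235 and -135) and 1 before Tead1 (-198), Yap1 (-149) and Wwtr1 (-218). None was present in the 250 bases before the start searched for TEAD2, TEAD3, WWTR1, VGLL4, Tead2, Tead4 or Vgll4. Stretches before other annotated starts were not searched, and VGLL4 has 18 starts, WWTR1 11 and Vgll4 7. For VGLL4 and Vgll4 the start searched was an internal one. Regions over other Vgll4 start sites held 3 and 2 cores in the primary tumor list.

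The full sequence ACATTCCA lay within few of the regions, and those with a counterpart in the other species, a change in rank or no counterpart in the other list are shown with the match in capitals. The first pair, within 1 kb of a WWTR1 start site in each species, was identical between human and mouse in 17 of the 22 bases outside the match itself. The other human sites lay downstream of CCN1 and upstream of WWTR1. The last was the only full match in any region found in 1 list of its pair.
WWTR1 start site, hg38, chr3:149658860-149658889, minus strand: gggcggcagggACATTCCAatcctcccaca
Wwtr1 start site, mm10, chr3:57576570-57576599, minus strand: gcgacccagggACATTCCAatcctcccact
CCN1 downstream, hg38, chr1:85612951-85612980, minus strand: attcgaggttaACATTCCAttgctttgcct
WWTR1 upstream, shared, hg38, chr3:149777662-149777691, minus strand: aggaagggaagACATTCCAgggagggacag
Ccn1 downstream, mm10, chr3:145614543-145614572, plus strand: ttgtcccttccACATTCCActtcctaacga
WWTR1 upstream, control-only, hg38, chr3:149784167-149784196, plus strand: aacttttcacaACATTCCAgggatgtcagg

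These sites differed in what happened to the region around them. At the WWTR1 start site the region was at percentile 91.1 in control and 95.1 in HNF4G-KO, and at 82.8 in the primary tumor and 78.2 in mets. The CCN1 site lay in a region at percentile 77.4 in control and 51.7 in HNF4G-KO. The shared upstream WWTR1 region was at 50.1 in control and 19.1 in HNF4G-KO. The Ccn1 region was at 42.3 in the primary tumor and 65.7 in mets. The control-only region further upstream of WWTR1 was weak, at percentile 11.3.

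The first comparison asked which of these regions 1 group of a pair listed and the other did not. With an overlap of at least 1 bp counted as shared, 41 of the 182 control regions (22.5%, 17.1 to 29.1) had no counterpart in HNF4G-KO and are called control-only, against 25.0% of the whole control list. KO-only regions were 11 of 154 (7.14%, 4.03 to 12.3), against 6.76% of the HNF4G-KO list. In KPC, 11 of 139 primary tumor regions (7.91%, 4.48 to 13.6) were tumor-only, against 8.51% of that list, and 24 of 155 mets regions (15.5%, 10.6 to 22) were mets-only, against 20.2%. All 4 shares at the loci were near those of their lists, and the interval of each contained the share of the whole list. For mets-only regions this depended on the loci and windows taken: the share was 12.1% (7.47 to 19) without Tead1, the largest locus, and 13.4% (9.65 to 18.3) with windows of 100 kb on each side, and both intervals lay below 20.2%. At each single locus the interval contained the share of the whole list. Where a locus had no region in 1 list only, the count of 0 allowed a share of up to 12.5% (0 of 24 at TEAD1 in HNF4G-KO) to 50% (0 of 6 at Yap1 in the primary tumor).

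**Figure D1:**
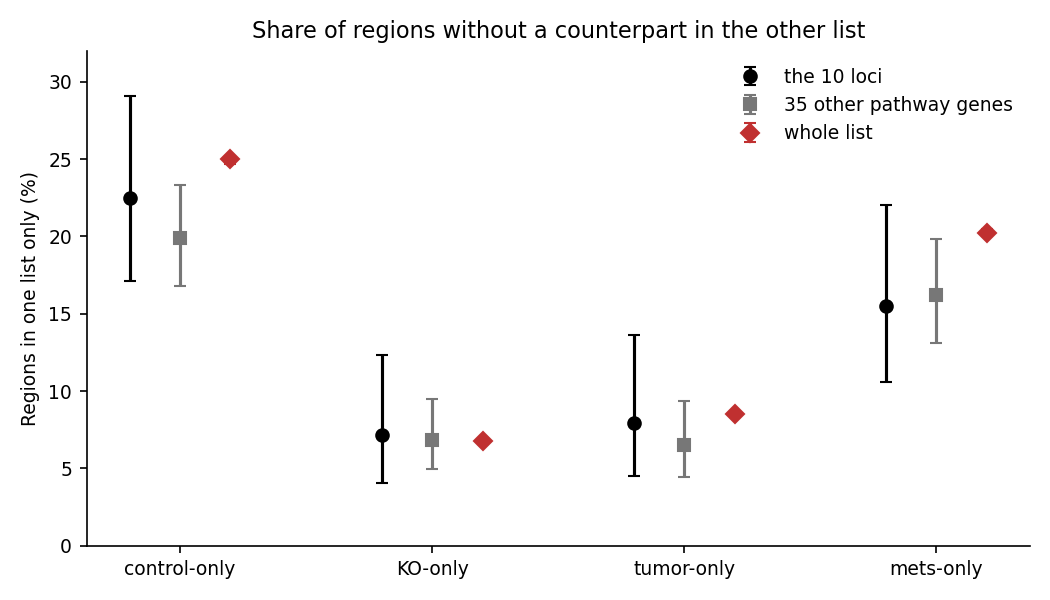
Share of regions (%) without a counterpart in the other list of the pair, for the 10 loci (circles), 35 other genes of the pathway (squares) and the whole list (diamonds), with Wilson 95% intervals of counting error. At the 10 loci the shares were 22.5% control-only, 7.14% KO-only, 7.91% tumor-only and 15.5% mets-only.

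The loci of protein-coding genes varied widely by the same measure. Among genes with at least 10 regions, the median control-only share was 19.2% (quartiles 10.5 and 27.3, 10709 genes), the KO-only median was 5.26% (0 and 9.09, 8806 genes), the tumor-only median was 7.69% (0 and 12, 6992 genes) and the mets-only median was 11.8% (6.67 and 20, 8486 genes). Regions in 1 list were weak ones: the deposited score, whose scale is not stated, was used only as a percentile rank within its own list, and the median percentile of control-only regions at the loci was 14.6, against 57 for the shared ones, where the whole control list gave 17.9 and 62.1. In the upper 50% of each list by score, 2 of 88 control regions (2.27%), 0 of 80 HNF4G-KO regions (a count of 0 allows up to 3.75%), 0 of 77 primary tumor regions (up to 3.90%) and 4 of 88 mets regions (4.55%) had no counterpart anywhere in the other list. The shares over the whole lists were near these, at 1.86%, 0.0556%, 0.503% and 4.17%.

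The TEAD genes encode the DNA-binding members. TEAD1 (chromosome 11, 12674421 to 12944737, plus strand), the longest of the genes, had 27 regions in control, 4 of them control-only, and 24 in HNF4G-KO, all shared. In mouse, Tead1 had 23 primary tumor regions with 1 tumor-only and 31 mets regions with 9 mets-only (29.0%, 16.1 to 46.6), the highest count of mets-only regions among the loci. TEAD2 (chromosome 19, 49340595 to 49362457, minus strand) had 8 control and 7 HNF4G-KO regions, with 2 control-only and none KO-only, and Tead2 had 7 and 6 regions, all shared. Only 1 of the 8 control regions at TEAD2 was nearest to the TEAD2 start site among protein-coding genes, so most of this window belonged by position to its neighbors.

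TEAD3 (chromosome 6, 35473597 to 35497079, minus strand) had 11 regions in each HPAF-II list, with 2 control-only and 2 KO-only. Tead3 had 12 primary tumor regions with 1 tumor-only and 11 mets regions, all shared. TEAD4 (chromosome 12, 2959330 to 3040676, plus strand) had 12 control regions, 5 of them control-only (41.7%, 19.3 to 68.0), and 8 in HNF4G-KO with 1 KO-only. Tead4 had 15 primary tumor regions with 3 tumor-only and 13 mets regions, none mets-only. At the 4 TEAD loci together, 13 of 58 control regions were control-only (22.4%) and 9 of 61 mets regions were mets-only (14.8%), all 9 of them at Tead1.

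WWTR1 (chromosome 3, 149517235 to 149736714, minus strand) had the most regions of any locus in HPAF-II, with 37 in control (7 control-only) and 33 in HNF4G-KO (3 KO-only). Wwtr1 had 16 in the primary tumor (2 tumor-only) and 21 in mets (6 mets-only, 28.6%, 13.8 to 50). YAP1 (chromosome 11, 102110447 to 102233424, plus strand) had 19 control regions with 2 control-only and 16 in HNF4G-KO, all shared. Yap1 had the fewest primary tumor regions of the loci, 6, none tumor-only, and 7 in mets with 1 mets-only. Per 100 kb of window the control list held 11.6 regions at WWTR1 and 8.52 at YAP1, and the primary tumor list 7.26 at Wwtr1 and 3.48 at Yap1, against medians over protein-coding genes of 6.82 in control and 4.74 in the primary tumor.

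VGLL4 (chromosome 3, 11556069 to 11771350, minus strand), which encodes the competing cofactor, had 21 control regions with 6 control-only (28.6%, 13.8 to 50) and 18 HNF4G-KO regions with 3 KO-only. Vgll4 had 26 primary tumor regions with 1 tumor-only and 28 mets regions with 2 mets-only (7.14%, 1.98 to 22.6). The strongest region of all the loci in HPAF-II was here, in an intron 3237 bp from the nearest VGLL4 start site, at percentile 99.99 in control and 99.8 in HNF4G-KO.

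Of the target genes, CCN1 (chromosome 1, 85580761 to 85584589, plus strand) had 14 control regions, of which 3 were control-only, and the 11 in HNF4G-KO were all shared. Ccn1 had 13 primary tumor regions (2 tumor-only) and 12 mets regions (1 mets-only). CCN2 (chromosome 6, 131948176 to 131951372, minus strand) had 14 control regions, 6 of them control-only (42.9%, 21.4 to 67.4), and 9 HNF4G-KO regions with 1 KO-only, whereas Ccn2 had 12 in each KPC list with 1 tumor-only and 1 mets-only. All 6 control-only regions of CCN2 lay on the downstream side of its start site, between 2320 and 25106 bp from it, 1 in an exon and 5 beyond the end of the gene. AMOTL2 (chromosome 3, 134355347 to 134375479, minus strand) had 19 control regions with 4 control-only and 17 HNF4G-KO regions with 1 KO-only. Amotl2 had 9 primary tumor regions, all shared, and 14 mets regions with 4 mets-only.

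**Figure D2:**
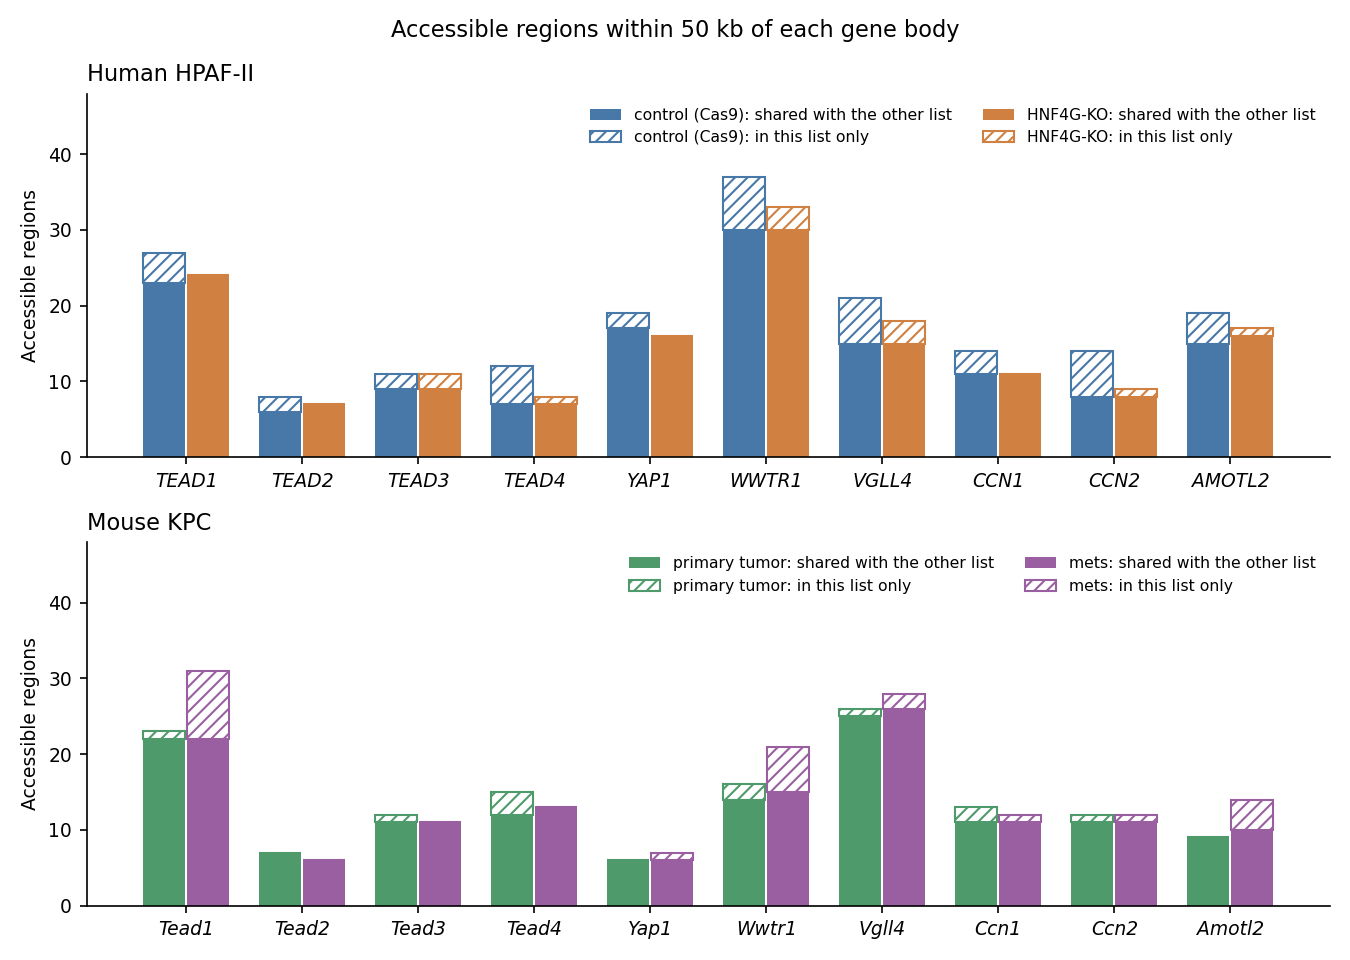
Number of accessible regions per locus (gene body and 50 kb on each side) in the HPAF-II lists (upper) and the KPC lists (lower), with shared regions solid and regions without a counterpart hatched. WWTR1 had the most control regions (37) and Tead1 the most mets regions (31), 9 of them hatched.

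The strongest regions in 1 list lay away from the start sites. The highest control-only region at the loci was 38805 bp from the nearest AMOTL2 start site, on the downstream side (134327634 to 134328036), at percentile 57.4, and held 2 matches to the AP-1 sequence TGANTCA, the target of the FOS and JUN factors. It was followed by a region in an intron of TEAD1 (52.5), 2 downstream of CCN2 (48.4 and 42.6, the second with 3 TEAD cores) and another in an intron of TEAD1 (41.6). The highest KO-only regions reached only 31.5 downstream of CCN2, 26.8 in an intron of VGLL4, 20 and 19.1 at WWTR1 and 14.5 at the 3′ end of TEAD3. None of the 11 KO-only regions held the TEAD core, AP-1, HNF4 (CAAAGTCCA) or FOXA (TGTTTAC) sequence, and a count of 0 of 11 allows up to 27.3%. Over all KO-only regions 16.2% held the core, 26.2% AP-1, 0.442% HNF4 and 6.19% FOXA, of which none lies above that limit.

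Mets-only regions at Tead1 ranked highest among those of the KPC lists. The first (112953652 to 112954098, percentile 62.9) overlapped the start site of the neighboring Rassf10. The second (112841926 to 112842297, percentile 61.8) lay over an exon of Tead1, 2292 bp from one of its start sites, and held 1 TEAD core and 1 FOXA match. The next were another region downstream of Tead1 (55.0), a region in an intron of Wwtr1 (51.6) and one upstream of Amotl2 (47.1) with 2 TEAD cores and 2 AP-1 matches. Tumor-only regions were weaker, with the highest in an intron of Tead4 (33.3), followed by 1 upstream of Tead1 (20), 1 upstream of Ccn1 (12.5), another in an intron of Tead4 (10.6) and 1 downstream of Wwtr1 (7.47), 480 bp from the start site of Tm4sf4.

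Regions within 1 kb of a start site of the gene itself were mostly shared. They numbered 26 in control with 2 control-only (7.69%, 2.14 to 24.1), 23 in HNF4G-KO with none KO-only (up to 13.0%), 20 in the primary tumor with 1 tumor-only and 22 in mets with 1 mets-only. Start-site regions were mostly shared elsewhere too: within 1 kb of a start site of any protein-coding gene, 12.3% of control, 3.77% of HNF4G-KO, 5.57% of primary tumor and 8.39% of mets regions were in 1 list. Control-only were a narrow region at the TEAD2 start site (percentile 6.69), beside a second one that was shared (80.9 in control and 77.5 in HNF4G-KO), and a region within 1 kb of a WWTR1 start site (16.9). Tumor-only was a region inside Ccn2, 851 bp from its nearest annotated start site (percentile 1.47), and mets-only a region over an alternative start site of Tead1 (23.7).

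The strongest own start-site regions were those of VGLL4, at percentile 98.5 in control and 99.5 in HNF4G-KO, and of WWTR1 (91.1 and 95.1). The other shared start-site regions of WWTR1 all ranked lower in HNF4G-KO (72.7 and 63.3, 68.7 and 50.5, 41.2 and 20). Those of VGLL4 went either way (95 and 93, 70.2 and 64.4, 80.1 and 82.4). TEAD1 stood at 60.9 and 67.4 over its first start site and at 75.9 and 62.2 over an internal one. TEAD4 was at 76.3 and 80 over its first start site, and lower in HNF4G-KO at its weaker ones (38.1 and 35.9, 37.4 and 34.3). AMOTL2 was at 78.0 and 80.9. CCN1 was at 55.7 and 60.0 over its first start site but at 48.4 and 44 over another. In KPC, Tead4 was at 53.3 in the primary tumor and 67.7 in mets, and Tead3 at 49.0 and 55.7. Ccn1 was at 44 and 60.1 and Amotl2 at 64.0 and 72.4, whereas Tead1 was at 63.1 and 50.3 and Wwtr1 at 82.8 and 78.2. At Yap1 and Vgll4 the direction depended on the start site. Yap1 was at 79.7 and 88.2 at an internal one but at 57.9 and 52.2 over its first. Vgll4 was at 80.3 and 82.8 at an internal one but at 62 and 46.1 over its first. In all, 13 of 24 shared start-site regions ranked higher in HNF4G-KO than in control, and 12 of 19 higher in mets than in the primary tumor. The 13 include the YAP1 and TEAD3 regions that faced a joined HNF4G-KO region, described below. Over all shared regions, at start sites or elsewhere, 26582 of 88632 ranked higher in HNF4G-KO and 40446 of 62280 higher in mets. Their median changes were -4.65 and 3.67 percentile points. Start-site regions of other genes were not counted separately in this way, so whether these loci differ from other start sites was not tested. Among own start-site regions that paired 1 to 1, the median change was -2.28 percentile points in HPAF-II (19 regions, and 0.925 over all 24 shared) and 3.67 in KPC (14 regions, and 6.06 over all 19), and 2 in HPAF-II and none in KPC moved by 20 points or more.

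At several start sites 1 long region stood opposite 2 shorter ones, so a comparison of their ranks was one of unequal widths. At YAP1, control regions of 901 bp (percentile 52.1) and 1344 bp (78.2) faced a single HNF4G-KO region of 2449 bp (79.1). TEAD3 showed the same, with control regions at 54.6 and 54.0 against 1 HNF4G-KO region at 72.5, as did Tead2, with primary tumor regions at 24.3 and 28.5 against 1 mets region at 42.2. The reverse was seen at AMOTL2, where 1 control region faced 2 in HNF4G-KO, and at Wwtr1, Tead4 and Amotl2, where 1 primary tumor region faced 2 in mets. The smaller mets regions at Wwtr1 and Tead4 were at percentile 0.85 and 0.35.

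The second comparison asked how the rank of shared regions differed within each pair. In HPAF-II the 141 shared control regions had a median change of -3.59 percentile points in HNF4G-KO (quartiles -11.8 and 2.46), against -4.65 for all 88632 shared control regions. In KPC the 128 shared primary tumor regions had a median change of 4.61 points in mets (-0.876 and 11.4), against 3.67 for all 62280. Ranked among shared regions only, which removes the weak regions that 1 list holds, the medians at the loci were 1.47 and 1.75, against 0.676 and 0.988 for all, so that the direction in HPAF-II turned with the ranking. The medians at the loci therefore lay about 1 point from those of their lists by either ranking.

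A change of at least 20 points was counted as a fall or a rise. In HPAF-II 19 of 141 shared regions fell (13.5%), against 14.9% of all shared control regions, and 2 rose (1.42%), against 2.85%. In KPC 15 of 128 rose (11.7%), against 12.9% of all shared primary tumor regions, and 4 fell (3.12%), against 5.12%. All 4 shares were close to and slightly below those of the whole lists. The falls in HPAF-II were spread over 9 of the loci, with 6 at WWTR1, 4 at CCN1, 2 each at TEAD2 and YAP1, and 1 each at TEAD1, TEAD4, VGLL4, CCN2 and AMOTL2. TEAD3 had none.

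**Figure D3:**
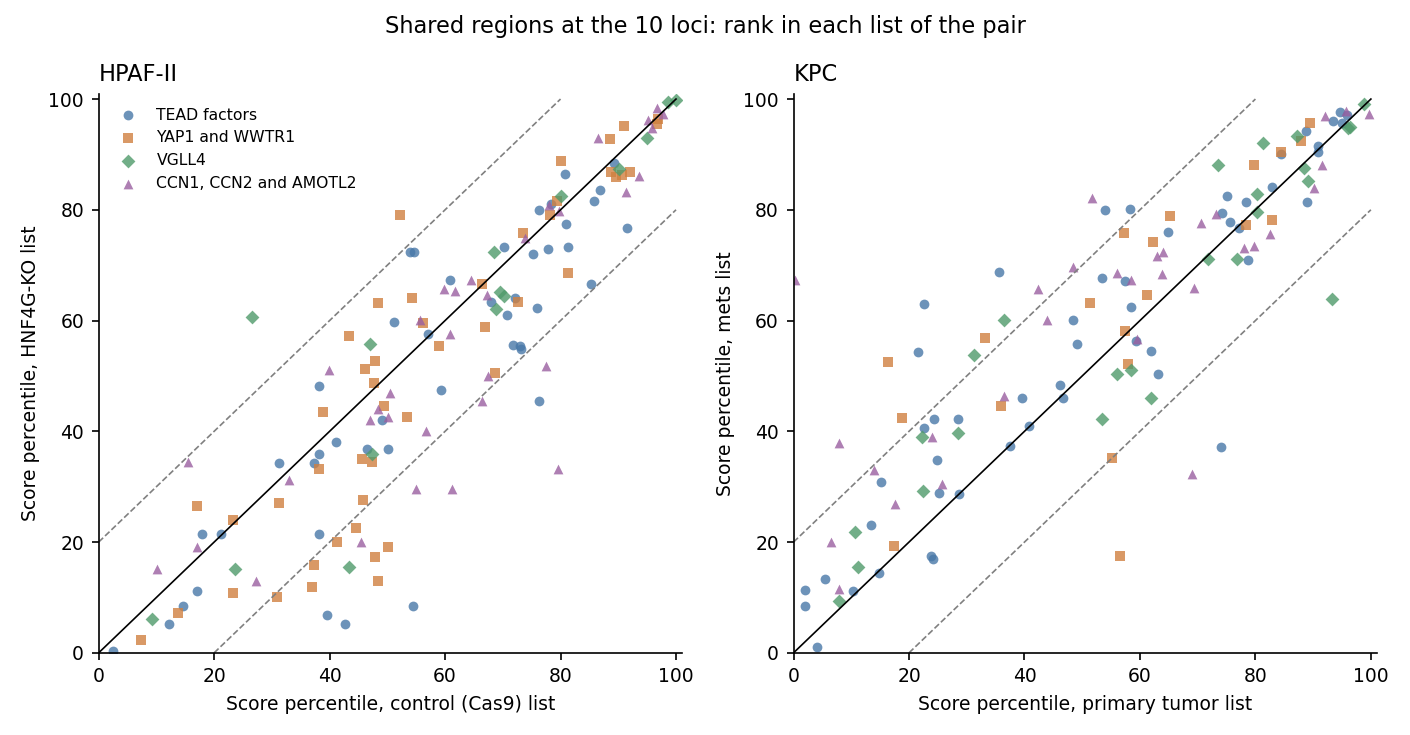
Score percentile of each shared region at the 10 loci in the first list of the pair (x axis) and in the other list (y axis), by role of the gene, with the line of equal rank and dashed lines at changes of 20 points. In HPAF-II 19 regions lie under the lower dashed line and 2 above the upper one, and in KPC 4 and 15.

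The deepest fall in HPAF-II was downstream of CCN1, 41556 bp from its nearest start site. The region ran from 85623019 to 85623598 in control, at percentile 79.5, and from 85623055 to 85623352 in HNF4G-KO, at 33.2 (change -46.4). The control region held a full TEAD sequence near its end, beyond the end of the HNF4G-KO region. The last 112 bases of the control region, a stretch chosen after its values were seen, are shown on the plus strand with the core in capitals.
CCN1 downstream, hg38, chr1:85623487-85623598, plus strand: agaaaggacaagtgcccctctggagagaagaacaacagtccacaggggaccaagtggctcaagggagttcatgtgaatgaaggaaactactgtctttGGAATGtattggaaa

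Both CCN1 regions with a full TEAD sequence were thus among its 4 falls. The other 2 were a region 29321 bp upstream, nearer to the start site of DDAH1 (61.2 in control and 29.5 in HNF4G-KO), and a region inside CCN1, 625 bp from its nearest annotated start site (45.4 and 20). The other 7 shared CCN1 regions changed by -7.41 to 11.2 points, among them 2 strong ones downstream, at 97.7 in control and 97.3 in HNF4G-KO and at 95.8 and 94.8. All shared CCN1 regions paired 1 to 1. Over all 10 loci, 3 of the 8 shared control regions with the full sequence fell by 20 points or more (37.5%) and 16 of the 133 without it (12%), whereas over the whole control list these shares were 17.0% of 3490 and 14.8% of 85142. Both CCN1 regions were among the 3, and the difference at the loci rests on few regions and was not tested. With the core in place of the full sequence, the shares at the loci were 12.3% of 73 with it and 14.7% of 68 without it. In KPC none of the 9 regions with the full sequence fell and 1 rose, against 4 and 14 of the 119 without it.

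**Figure D4:**
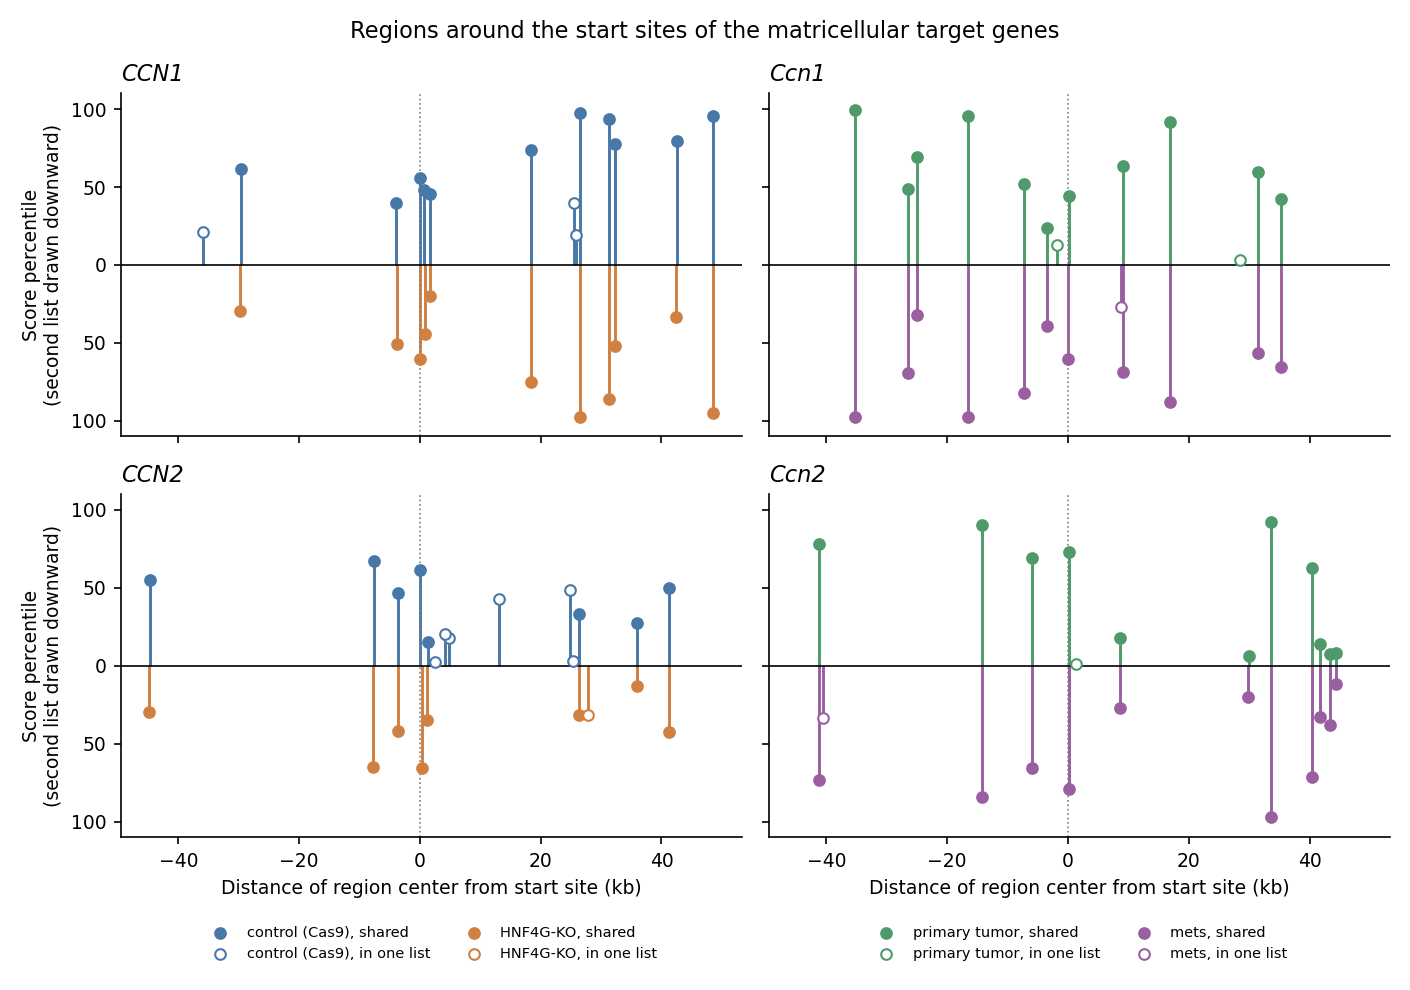
Regions around CCN1 and CCN2 (left) and Ccn1 and Ccn2 (right), placed by the distance of the region center from the start site in kb, positive in the direction of transcription, with the score percentile drawn upward for control or primary tumor and downward for HNF4G-KO or mets. Open circles are regions in 1 list only, 6 of which lie on the downstream side of the CCN2 start site in control, 1 of them in its exon.

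The other large falls in HPAF-II were in introns of TEAD2 (54.5 in control and 8.54 in HNF4G-KO), TEAD1 (42.6 and 5.19) and WWTR1 (48.4 and 13.0), and downstream of TEAD2 (39.6 and 6.85), none of them with a TEAD core. By position the pair at TEAD2 lay nearest to the start sites of CD37 and SLC6A16. The largest rise was downstream of VGLL4, from 26.5 to 60.7, in a region without any of the sequences searched. The next, at the YAP1 and TEAD3 start sites (27.0, 18.5 and 17.9 points), faced joined regions as described above, and a region in an exon of CCN2 went from 15.5 to 34.5. Of the 5 largest falls in HPAF-II, 4 thus began in the middle ranks of control, between 39.6 and 54.5.

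In KPC the largest rise, at Amotl2 (0.187 in the primary tumor and 67.3 in mets), was a narrow region that did not pair 1 to 1. Among pairs that did, regions in introns of Tead1 went from 22.7 to 63.0 and from 21.6 to 54.4, a region upstream of Wwtr1 from 16.4 to 52.4, and a region upstream of Tead2, 87 bp from the start site of the neighboring Ccdc155, from 35.6 to 68.8. Ccn1 had 3 rises: upstream of it (51.6 to 82.0 and 48.5 to 69.7) and downstream at a full TEAD sequence (42.3 to 65.7). The falls were in introns of Wwtr1 (56.5 to 17.6), Tead1 (74.0 to 37.1) and Vgll4 (93.2 to 63.8) and upstream of Ccn1 (68.9 to 32.4). A region downstream of Wwtr1, over the start site of the neighboring Tm4sf4, went from 55.1 to 35.3, just short of 20 points.

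By locus, the median change in HPAF-II was lowest at TEAD2 (-9.82), TEAD4 (-7.99), WWTR1 (-5.88) and TEAD1 (-5.80), then CCN1 (-4.31), CCN2 (-3.80), VGLL4 (-2.83), TEAD3 (-0.881) and YAP1 (-0.397), and was above 0 at AMOTL2 (1.01). In KPC it was highest at Yap1 (8.53) and Amotl2 (8.43), then Ccn2 (6.06), Tead2 (5.25), Wwtr1 (5.24), Ccn1 (4.63), Tead4 (4.30), Tead3 (3.98) and Tead1 (2.79), and lowest at Vgll4 (0.335). These orders rest on 6 to 30 shared regions a locus and have no test.

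The TEAD core was found in 81 of the 182 control regions at the loci (44.5%, 37.5 to 51.8), against 31.7% of the control list, and in 68 of 154 HNF4G-KO regions (44.2%, 36.6 to 52.0), against 30.5%. In KPC it was in 37.4% of primary tumor regions at the loci (29.8 to 45.7), against 32.8%, and in 37.4% of mets regions (30.2 to 45.3), against 29.3%. The loci were above their lists in all 4, and the interval excluded the share of the whole list in control, HNF4G-KO and mets but not in the primary tumor. The 2 lists of a pair are not independent here, since 141 of 182 control and 131 of 155 mets regions at the loci were shared. Regions at the loci were about as wide as those of their lists in HPAF-II (median 456 bp against 462 bp in control), and the core occurred 1.12 times per kb there against 0.737 in the whole control list. In KPC they were wider, with medians of 568 bp against 516 bp in the primary tumor and 449 bp against 409 bp in mets. Per kb the core occurred 1.05 times against 0.709 in the primary tumor and 1.11 times against 0.739 in mets. Away from the own start sites the share in control was 42.3% (34.8 to 50.2), and at them 57.7% (38.9 to 74.5).

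By locus the core was in 11 of 19 control regions at AMOTL2, 8 of 14 at CCN2, 7 of 14 at CCN1, 6 of 12 at TEAD4, 13 of 27 at TEAD1, 8 of 19 at YAP1, 15 of 37 at WWTR1, 3 of 8 at TEAD2, 4 of 11 at TEAD3 and 6 of 21 at VGLL4. In HNF4G-KO it was in 11 of 17 at AMOTL2, 7 of 11 at CCN1, 12 of 24 at TEAD1, 5 of 11 at TEAD3 and 4 of 9 at CCN2. In the primary tumor list, Amotl2 (7 of 9), Ccn1 (7 of 13) and Ccn2 (6 of 12) had the highest shares of the loci. These shares by locus have no test. Cores were fewer in control-only regions (8 of 41, 19.5%, 10.2 to 34.0) than in shared ones (73 of 141, 51.8%, 43.6 to 59.9). Control-only regions were also narrower, with a median width of 275 bp against 564 bp, and over the whole control list the same shares were 22.2% and 34.9%. Per kb the core occurred 0.832 times in control-only and 1.16 times in shared regions at the loci. Over the whole control list the direction per kb was the opposite, at 0.9 and 0.712.

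The full sequence ACATTCCA was in 9 control regions at the loci (4.95%, against 3.60% of the list), 8 HNF4G-KO regions (5.19%, against 3.38%), 9 primary tumor regions (6.47%, against 4.29%) and 8 mets regions (5.16%, against 3.93%). Each interval contained the share of its list, so a difference was not detectable with this number of regions. AP-1 was in 37.4% of control regions at the loci, against 39.1% of the list, and in 41.0% of primary tumor regions, against 46.0%. HNF4 was found in 2 control regions, an intronic one of VGLL4 (percentile 47.4 in control and 35.9 in HNF4G-KO) and one 7255 bp upstream of CCN2 (67.2 and 64.6). Both were shared, and none of the 41 control-only regions held it, which allows up to 7.32%. In KPC it was in 3 primary tumor regions at the loci, all shared, and in 4 mets regions, of which 1 in an intron of Tead1 (percentile 24.95) was mets-only. These were 1.10%, 2.16% and 2.58% of the regions at the loci in control, primary tumor and mets, against 1.60%, 1.48% and 1.28% of the lists.

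Human and mouse regions at the same locus were then aligned. With at least 100 bp at 70% identity or more, 39 of 182 control regions (21.4%, 16.1 to 27.9) aligned to a primary tumor region of the orthologous locus, and 1 to a region of another locus. Of the shared control regions, 37 of 141 aligned (26.2%, 19.7 to 34.1), and of the control-only regions 2 of 41 (4.88%, 1.35 to 16.1). The locus with the most control regions aligned to either KPC list was TEAD1, with 9 of 27, followed by CCN1, with 6 of 14. Of the 39 aligned control regions 37 were thus shared, where 141 of all 182 were. Control-only regions were also narrower (median 275 bp against 564 bp), and an alignment required at least 100 bp. Whether width accounts for their lower share was not tested.

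The aligned regions at CCN1 and CCN2 included their start sites. The CCN1 start-site region aligned over 542 bp at 76.8% identity and that of CCN2 over 372 bp at 79.0%. The CCN2 exon region that went from 15.5 to 34.5 aligned over 207 bp at 92.3% to the weak tumor-only region inside Ccn2. The downstream CCN1 region with the deepest fall aligned over 394 bp at 77.7% to a mouse region (145618279 to 145618695) at 59.5 in the primary tumor and 56.6 in mets, which had no full TEAD sequence. A strong region further downstream of CCN1 (95.8 in control and 94.8 in HNF4G-KO) aligned over 664 bp to the Ccn1 region that rose from 42.3 to 65.7. An intronic region of TEAD1 (86.9 in control and 83.5 in HNF4G-KO) aligned over 500 bp at 86.0% to one at 94.7 in the primary tumor and 97.6 in mets. A control-only region upstream of CCN1, at percentile 21.15, aligned over 300 bp at 83.3% to a Ccn1 region at percentile 99.65 in the primary tumor.

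The other genes of the pathway were described as a list of 35 genes, of which all were found in both species. In HPAF-II 112 of their 564 control regions were control-only (19.9%, 16.8 to 23.3), against 25.0% of the list, and 33 of 481 HNF4G-KO regions were KO-only (6.86%, 4.93 to 9.48). In KPC 26 of 400 primary tumor regions were tumor-only (6.50%, 4.47 to 9.35) and 74 of 458 mets regions were mets-only (16.2%, 13.1 to 19.8), against 20.2% of the list. Over regions near any protein-coding gene these shares were 23.5%, 6.55%, 8.33% and 18.5%. The kinases and scaffolds upstream of YAP1 and the other target genes had control-only shares of 20.2% (52 of 258) and 19.7% (58 of 294), KO-only shares of 9.25% (6.13 to 13.7) and 4.94% (2.85 to 8.43), tumor-only shares of 2.40% (4 of 167, 0.935 to 6) and 9.17% (21 of 229, 6.08 to 13.6), and mets-only shares of 13.7% and 17.9%. The difference between both groups of genes was not tested.

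All 15 genes for kinases and scaffolds had at least 1 control-only region and a median change below 0 in HPAF-II, as did 93.3% and 83.1% of the 10709 protein-coding genes with at least 10 control regions. The 15 genes were not held to that minimum: MOB1A and MOB1B had 8 control regions each, and LATS1 and AMOT 7 each. Ranked among shared regions only, the median was below 0 at 6 of the 15, against 28.8% of the protein-coding genes. The highest control-only shares among the pathway genes with at least 10 regions were at GADD45A (4 of 11), RBMS3 (9 of 25) and SAV1, a scaffold of the kinases (3 of 10). The highest KO-only shares were at the upstream kinases TAOK1 (5 of 17), STK4 (3 of 18) and STK3 (5 of 34). Tumor-only shares were highest at Asap1 (7 of 38) and Crim1 (2 of 21), with Gadd45a, Nf2 and Rbms3 next at 1 of 11 each. Mets-only shares were highest at Tgfb2, a growth factor gene (6 of 11), and Rbms3 (6 of 15), with Foxf2, Mob1a and Stk3 next at 3 of 10 each.

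ANKRD1 and AXL are further common readouts of YAP1 activity. The intervals of their control-only shares contained the 25.0% of the whole control list. ANKRD1 had 7 regions in each HPAF-II list, all shared (interval of the control-only share 0 to 35.4%). Their median change was -2.77 percentile points, a smaller fall than that of all shared control regions (-4.65). Ankrd1 had 8 in the primary tumor, all shared, and 10 in mets with 1 mets-only. The median change at Ankrd1 was 2.92, a smaller rise than that of all shared primary tumor regions (3.67). AXL, a receptor tyrosine kinase gene, had 18 control regions, of which 2 were control-only (11.1%, 3.1 to 32.8), and the 16 in HNF4G-KO were all shared. The median change of its shared regions was -11.3 percentile points, against -4.65 for all shared control regions. Axl had 17 primary tumor regions, all shared, and 19 mets regions with 2 mets-only. Its median change was 5.74, against 3.67 for all shared primary tumor regions.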

How the data were processed

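Omni-ATAC-seq was run on 16 samples in 4 groups of 4, assigned from their titles. The labels name Bowtie2 2.2.6, MACS2 2.1.1.20160309 and DiffBind and the builds hg38 and mm10, without the role of each for these files. The authors deposited 1 BED list per group, in which each region carries a score whose scale is not stated, so the score served only as a percentile rank within its list. How replicates were combined and reads shifted is not given in the sources used here, and deeper libraries can list more weak regions. Every region fitted within its hg38 or mm10 chromosome.

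Genes came from GENCODE v44 and vM21. Shared regions were paired by longest overlap, sequences were searched in Python 3.11.15, and regions were aligned with BLAST 2.17.0 (word size 11), a step added after values had been seen, as was the epithelial marker list. No p-value was computed, since a count test needs reads per replicate. The pairing was tested on simulated regions. Named were all members, their start-site regions, the 5 highest one-list regions per list, the 5 largest falls and rises per pair and 3 pathway genes per list, with ties. The members and lists were chosen with earlier results of these data known. Alternatives covered overlap, distance, score, list size, window, nearest gene, ranking and the sequence searched.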

Additional observations from a re-analysis of the deposited data

How the results depend on the processing

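Most values kept their place: of 66 values recomputed for the loci together, 51 stayed inside the interval of the reported value, 14 left it and 1 changed direction. The control-only share fell to 17.0% when only the upper 50% of each list was compared and to 9.63% with lists of equal size, where the whole control list gave 22.1% and 13.7%. With equal sizes the KO-only share was 12.1% (whole list 11.7%), above the control-only one. The KO-only share fell to 3.90% when regions within 500 bp counted as shared (whole list 5.49%). Ranked among shared regions only, the median change was 1.47 in HPAF-II, opposite to the reported direction, and 1.75 in KPC. The TEAD share was 44.5%, 44.2%, 37.4% and 37.4% (control, HNF4G-KO, primary tumor, mets) with the core, and 2.2%, 1.30%, 2.16% and 1.29% in the central 200 bp. With 10 kb on each side it was 0.917% in control (1 of 109 regions) and 2.13% in HNF4G-KO (2 of 94), so the full matches in HPAF-II lay mostly more than 10 kb from the genes. The causes of these shifts were not tested. Of 375 values of single loci and named regions, 321 were the same, 49 moved, 4 passed 20 points and 1 dropped below it, and none changed direction. Without the largest locus (WWTR1 in HPAF-II, Vgll4 in the primary tumor and Tead1 in mets) the shares were 23.4%, 6.61%, 8.85% and 12.1%, the last with an interval below the 20.2% of the mets list.

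No paired analysis was possible because the lists hold no value per replicate. Leaving out a replicate was not run for the same reason. Read depth is unknown, and the number of regions a locus limits each share.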
